A study of Mus musculus with 8 samples.

Results

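The BCL2 family decides whether a mitochondrion opens its outer membrane and so starts the intrinsic route of apoptosis. Of 27998 genes listed in both matrices, 10 were taken by symbol: the anti-apoptotic genes Bcl2, Mcl1, Bcl2l1, Bcl2a1b and Bcl2a1d, the effector Bax, the BH3-only genes Bcl2l11, Pmaip1 and Bbc3, and Apaf1. Each symbol occurred once per matrix, and the rule uses no measured value. The libraries were made from left ventricles of male C57BL/6 mice aged 10 to 12 weeks, after a slipknot on the left anterior descending artery was closed for 30 min and released (ischemia–reperfusion, IR) or after the same surgery without ligation (sham). Both groups were digested 6 h after surgery, hearts were pooled for each suspension, and 4 samples were recorded per group. The sample titles name the groups IR0h and IR6h. They are called sham and IR here, since the protocol names only these operations. The labels give no genotype and no treatment beyond the surgery. They number the samples of a group from 1 to 4 without saying whether these are separate suspensions or runs of 1 suspension.

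In healthy cells, anti-apoptotic proteins such as MCL1, BCL-XL (from Bcl2l1), BCL2 and A1 (from the Bcl2a1 genes) hold BAX and its relative BAK in check. BH3-only proteins such as BIM (Bcl2l11), NOXA (Pmaip1) and PUMA (Bbc3) bind these guardians, or the effectors, and release the block. Cytochrome c that leaves an opened mitochondrion joins APAF1 to form the apoptosome, which activates caspase-9. Neutrophils depend on MCL1 for their short life, lymphocytes lean on BCL2, and the A1 genes are typical of leukocytes exposed to inflammatory signals.

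Each group was deposited as 1 matrix of unique molecular identifier (UMI) counts, without a map from cells to samples. No difference between sham and IR therefore has a replicate check, no test was run, and each interval below covers counting error only. The sham library held 11620 barcodes and 58653308 UMIs, and the IR library 8539 barcodes and 75033226 UMIs. Between 200 and 2500 detected genes and at most 30% mitochondrial UMIs were required, which left 9777 sham and 4880 IR cells. This filter removed 8.73% of sham but 58.4% of IR mononuclear phagocyte-like cells, and 14.4% of sham but 86.6% of IR fibroblast-like cells. Values without the upper limit are given beside some, but not all, of the results that it moved. Cells were classed by the largest share of marker genes with a UMI. The 8 classes with at least 50 cells in both libraries were mononuclear phagocyte-like (3147 sham and 537 IR cells), neutrophil-like (239 and 2320), B-cell-like (1100 and 708), T-cell-like (340 and 227), NK-cell-like (219 and 68), fibroblast-like (2913 and 203), endothelial-like (219 and 54) and mural-like (687 and 108). C1qa, C1qb and C1qc led the mononuclear phagocyte-like class in both libraries, and none of its own 10 markers was among its 10 leading genes in IR, while no class had a marker of another class there. The mixed barcodes, 6.53% of sham and 8.05% of IR cells, were left out, and 30 barcodes occurred in both libraries. S100a8 and S100a9 were taken as a mark of free neutrophil RNA in other cells. They summed to between 28.5 and 146 counts per 1000000 UMIs (CPM) in sham classes other than neutrophils. In those classes of IR they summed to between 497 and 1023 CPM. The study lists an S100a9+ cluster among its monocytes and macrophages, so in mononuclear phagocytes these UMIs may include the cells' own.

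A level is the UMIs of a gene per 1000000 UMIs of its class. UMIs were counted at the 3′ end of transcripts, so levels were not divided by gene length. In mononuclear phagocyte-like cells, 5 of the 10 genes were at least 2-fold higher in IR than in sham, against 9.61% of 11022 genes with at least 20 UMIs, and none was at least 2-fold lower, against 9.35%. Genes without a UMI in one library were set at 3 UMIs there. The higher genes were 4 of the 5 anti-apoptotic genes, all but Mcl1, and the BH3-only gene Bcl2l11. Bcl2 had a log2 ratio of 0.085 (−0.12 to 0.29) without the upper limit on detected genes, which left 4 higher genes, and Bbc3 was then over 2-fold lower, at −1.41 (−1.61 to −1.21). Bcl2l11 was at 0.94 under a stricter marker rule. The median log2 ratio of IR over sham was 0.68 over the 10 genes and 0.07 over all genes tested. In neutrophil-like cells 9 of the 10 genes had enough UMIs, since Bcl2 did not. Of these, 4 were at least 2-fold higher in IR, against 11.8% of 7644 genes, namely Bcl2l1, Bcl2a1b, Bcl2a1d and Bcl2l11, and none was at least 2-fold lower, against 18.4%. The median was 0.76 over these 9 genes and −0.15 over all genes.

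In the other classes fewer of the 10 genes passed 2-fold between the libraries. In B-cell-like cells only Bcl2l11 of 10 tested genes was at least 2-fold higher in IR (5.46% of all genes) and none lower (4.44%). In T-cell-like cells only Apaf1 of 9 was higher (6.09%) and none lower (3.6%). In NK-cell-like cells Mcl1 and Bcl2l11 of 8 were higher (14.3%) and none lower (8.32%). In fibroblast-like cells Bcl2l1 and Bcl2a1b of 8 were higher (13%) and Bbc3 was lower (17.6%). Among 5 tested genes each, Bcl2l1 was higher in endothelial-like cells (9.04%) and Mcl1 in mural-like cells (8.06%), with none lower (13.8% and 10.7%).

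Neutrophil-like cells were also set against mononuclear phagocyte-like cells of the same library. In sham, Mcl1 and Bcl2l11 were at least 2-fold higher in neutrophils, against 11.3% of 10775 genes, and Bcl2, Bcl2a1b, Bcl2a1d, Bax and Bbc3 at least 2-fold lower, against 36.8%. In IR, Mcl1, Bcl2a1b and Bcl2l11 were higher, against 11.6% of 9656 genes, and Bcl2, Bax and Bbc3 lower, against 56.3%. The 3 lower genes in IR were a smaller share of the 10 than the share over all genes. The interval of Bcl2 in sham included 0, at −1.36 (−3.24 to 0.012), from 4 neutrophil UMIs. Bcl2a1b stood at a log2 ratio of neutrophils over mononuclear phagocytes of −1.22 (−1.53 to −0.93) in sham and 1.19 (1.14 to 1.24) in IR. With scaling by the median of ratios in place of totals, Pmaip1 and Apaf1 turned from −0.65 and −0.53 to 0.66 and 0.78 in IR, since the median over all genes was −1.30 there.

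**Figure D1:**
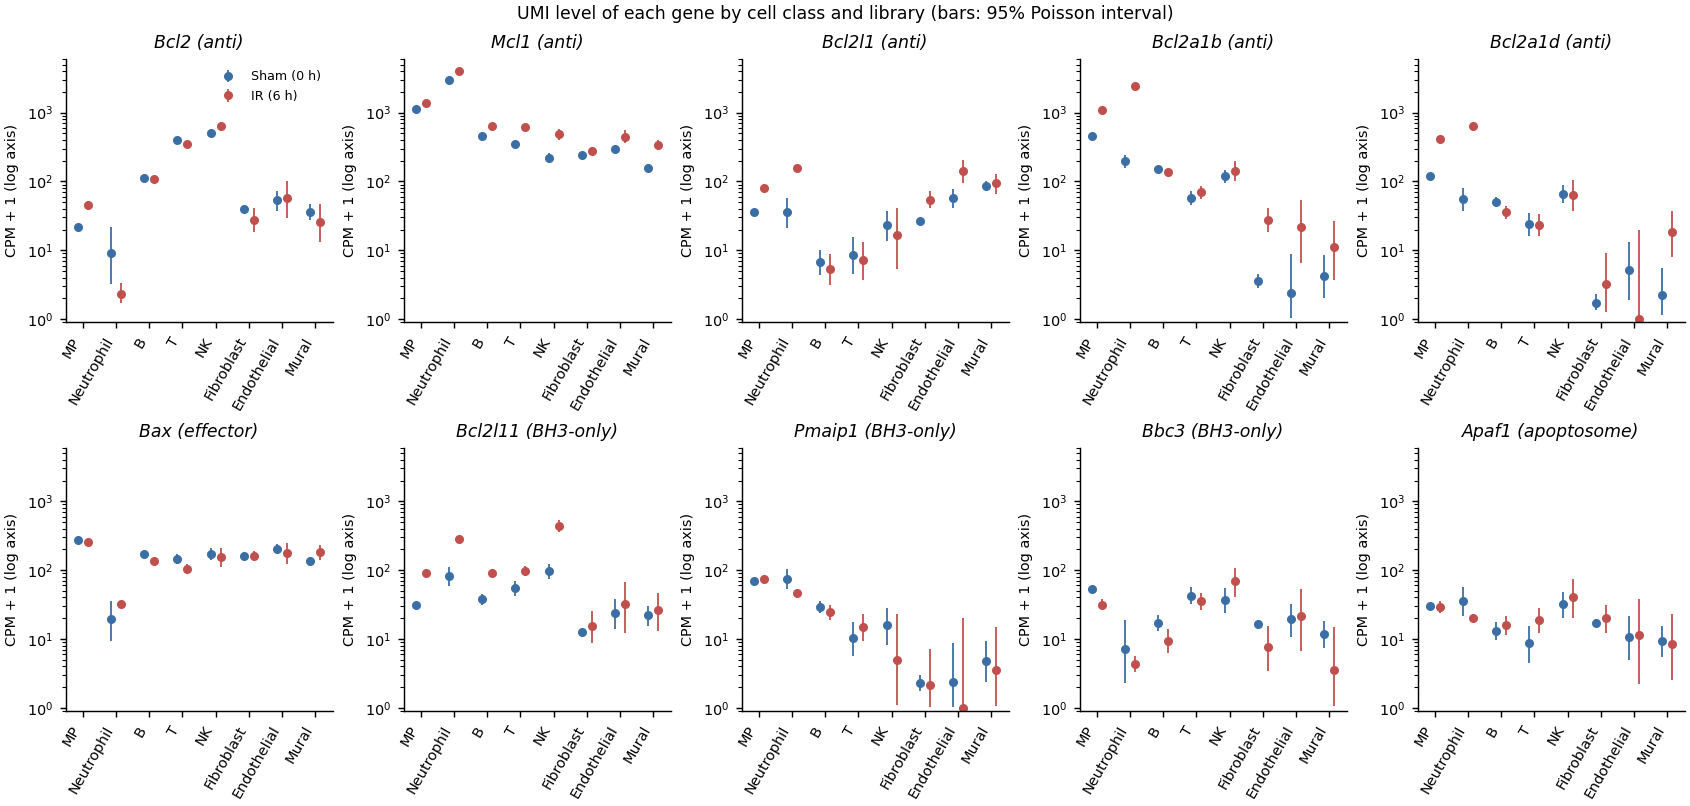
Level of each of the 10 genes (CPM plus 1, log axis) in 8 cell classes of the sham (blue) and IR (red) libraries, with 95% Poisson intervals as bars. Bcl2a1b and Bcl2a1d in neutrophils stood at 195 and 55.4 CPM in sham and at 2445 and 648 CPM in IR, whereas Bax was lowest in neutrophils in both libraries. MP, mononuclear phagocyte-like.

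Mcl1, on chromosome 3 (mm10, 95658788 to 95663176), encodes a short-lived anti-apoptotic protein. Its level in neutrophil-like cells was 2953 CPM (95% interval 2802 to 3110) in sham and 4088 CPM (4048 to 4129) in IR, the highest of the 8 classes in both libraries. Mononuclear phagocyte-like cells followed, with 1125 CPM (1108 to 1142) in sham and 1392 CPM (1352 to 1433) in IR. All other classes stayed at or below 450 CPM in sham and 637 CPM in IR. In sham the T-cell-like and endothelial-like levels, and the fibroblast-like and NK-cell-like levels, did not differ beyond their intervals. In IR the same held for B-cell-like against T-cell-like cells, for NK-cell-like against endothelial-like cells, and for mural-like against fibroblast-like cells.

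Mcl1 was higher in the IR library in all 8 classes, and the interval of the log2 ratio included 0 only in fibroblast-like cells, at 0.19 (−0.0028 to 0.38). The log2 ratio was 0.31 (0.26 to 0.35) in mononuclear phagocyte-like cells and 0.47 (0.39 to 0.55) in neutrophil-like cells, both under 2-fold. It passed 2-fold in NK-cell-like cells, which went from 216 to 483 CPM, and in mural-like cells, which went from 155 to 336 CPM. The NK-cell-like ratio was 0.97 with scaling by the median of ratios, and the mural-like ratio 0.75 under the stricter marker rule, both under 2-fold. The ratio was 0.85 (0.68 to 1.02) in T-cell-like cells and 0.50 (0.40 to 0.60) in B-cell-like cells. To compare shares at equal depth, cells were thinned to 1000 UMIs and shallower cells left out. An Mcl1 UMI was then found in 89.4% of 226 neutrophil-like cells in sham and in 96.2% of 2213 in IR, against 96.7% and 99.3% before thinning. The thinned share in fibroblast-like cells was 19.3% in sham and 27.7% in IR.

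A1 is encoded in the mouse by a cluster of near-identical genes, of which Bcl2a1b (chromosome 9, 89199209 to 89207827, plus strand) and Bcl2a1d (chromosome 9, 88723285 to 88731914, minus strand) are members here. Their coding sequences in GENCODE vM21 share 519 bases and differ at 6 of them, an identity of 98.8%. Bcl2a1a, a further copy, differs from Bcl2a1b at 11 bases and from Bcl2a1d at 7. Since reads that match several copies can be dropped or split in counting, the values of single copies are uncertain. Of the last 300 windows of 100 bases in the Bcl2a1b transcript 71.3% occur in no other Bcl2a1 transcript, and 46.7% of those of Bcl2a1d. The first 120 coding bases are shown because they hold 3 of the 6 differences, and capitals mark the bases that differ.
Bcl2a1b coding: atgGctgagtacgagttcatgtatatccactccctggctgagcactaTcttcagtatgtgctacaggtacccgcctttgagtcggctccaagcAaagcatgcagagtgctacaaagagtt
Bcl2a1d coding: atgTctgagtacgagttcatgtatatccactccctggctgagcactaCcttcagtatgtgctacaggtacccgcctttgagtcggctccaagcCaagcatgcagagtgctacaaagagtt
The sequences upstream of both genes are also alike. They are shown because both genes had higher levels in IR in the neutrophil-like and mononuclear phagocyte-like classes. Whether the shared sequence has a part in this was not tested. Capitals mark bases without an equal partner in the alignment of RefSeq promoter windows (GRCm38.p6), chr9:89199023-89199164 on the plus strand and chr9:88731915-88732050 on the minus strand. In all 135 bases were equal.
Bcl2a1b upstream: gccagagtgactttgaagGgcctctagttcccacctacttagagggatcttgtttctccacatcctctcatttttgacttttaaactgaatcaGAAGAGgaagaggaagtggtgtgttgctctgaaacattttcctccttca
Bcl2a1d upstream: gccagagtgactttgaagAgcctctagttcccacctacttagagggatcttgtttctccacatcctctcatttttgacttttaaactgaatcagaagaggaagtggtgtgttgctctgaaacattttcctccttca

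Promoter windows of 300 bases were found for 9 of the 10 genes and searched on both strands. Bcl2l1 and Bbc3 had 3 windows each, Bcl2l11 had 2 and the others 1. A gene was counted if any of its windows held the letters. Counts of genes are therefore not on the same scale as the shares of all windows. The AP-1 letters TGANTCA occurred in the windows of Bcl2a1b and Bcl2a1d alone among these 9 genes, as the run tgaatca that both upstream sequences hold, and in 7.81% of all 32851 windows. The C/EBP-ATF letters TGATGCAA likewise occurred in the windows of these 2 genes and in 0.895% of all windows. The NF-kB pattern was GGG and CC with 5 bases of any kind between them. It was in at least 1 window of 8 of the 9 genes, all but Bcl2a1d, and in 50.8% of all windows. For Bcl2l1 it was in 1 of 3 windows. In the Bcl2a1b window it overlapped only its own reverse strand match. FOXO letters TGTTTAC were in 1 of 2 Bcl2l11 windows, in 1 of 3 Bbc3 windows and in 3.65% of all windows. CRE letters TGACGTCA were in none of the 9 genes and in 1.79% of all windows.

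Bcl2a1b was at 195 CPM (158 to 239) in sham and 2445 CPM (2414 to 2477) in IR neutrophil-like cells, from 95 and 23416 UMIs. The log2 ratio was 3.65 (3.36 to 3.95). In mononuclear phagocyte-like cells it was at 454 CPM (443 to 465) in sham and 1075 CPM (1040 to 1111) in IR, a log2 ratio of 1.24 (1.19 to 1.30). Mononuclear phagocytes thus had the highest level in sham and neutrophils the highest in IR. The B-cell-like, T-cell-like and NK-cell-like levels lay between 56.8 and 153 CPM in sham and between 68.6 and 143 CPM in IR, and the interval of the log2 ratio included 0 in all 3 classes. After thinning, the share of neutrophil-like cells with a Bcl2a1b UMI was 10.6% in sham and 65.3% in IR, and that of mononuclear phagocyte-like cells 30.0% and 43.2%. The unthinned shares were 18.4% and 81.6% in neutrophils and 65.1% and 75.8% in mononuclear phagocytes. The thinned share in fibroblast-like cells, which should lack the gene, stood at 0.349% in sham and 3.08% in IR, with 4939 and 4389 UMIs per cell in the median.

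Bcl2a1d was likewise highest in mononuclear phagocytes in sham and in neutrophils in IR. In neutrophil-like cells it was at 55.4 CPM (36.5 to 80.7) in sham and 648 CPM (632 to 664) in IR, a log2 ratio of 3.55 (3.01 to 4.15). In mononuclear phagocyte-like cells it was at 119 CPM (114 to 125) and 407 CPM (385 to 429), a log2 ratio of 1.77 (1.67 to 1.87). Without the upper limit on detected genes that ratio was 1.42, below this interval. Bcl2a1b made up 77.9% of the UMIs of both genes in sham and 79.0% in IR neutrophils, and 79.2% in sham and 72.6% in IR mononuclear phagocytes. In B-cell-like cells Bcl2a1d went from 49.4 to 34.5 CPM, a log2 ratio of −0.52 (−0.91 to −0.13).

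In fibroblast-like cells Bcl2a1b was counted 36 times in sham and 24 times in IR, at 2.56 and 26.8 CPM, a log2 ratio of 3.39. Without the upper limit on detected genes the IR level was 10.1 CPM and the log2 ratio 1.67. At the ratio of Bcl2a1b to S100a8 and S100a9 UMIs seen in IR neutrophils, free neutrophil RNA alone would give 12.2 CPM in these fibroblast-like cells, 45.4% of the level, and 49.1% in endothelial-like and 120% in mural-like cells. The endothelial-like and mural-like levels in IR rest on 4 Bcl2a1b UMIs each, so their percentages are rough. In IR mononuclear phagocyte-like cells the same calculation gave 12.3 CPM, 1.15% of the Bcl2a1b level, and in B-cell-like cells 15.0%. With this free RNA taken off, the B-cell-like log2 ratio of IR over sham for Bcl2a1b was −0.38, in place of −0.15 (−0.35 to 0.057). For Bcl2a1d it was −0.77, in place of −0.52.

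Bcl2l1, on chromosome 2 (152780668 to 152831728), gives BCL-XL, the long-lived anti-apoptotic protein of many tissue cells. In sham it was highest in mural-like cells, at 85.3 CPM (71.5 to 101), next to endothelial-like cells at 56.2 CPM (40.1 to 76.5). In IR the neutrophil-like level of 154 CPM (147 to 162) and the endothelial-like level of 143 CPM (95.3 to 207) did not differ beyond their intervals. The neutrophil-like level in sham was 34.9 CPM (20.3 to 55.9), from 17 UMIs, which gave a log2 ratio of 2.14 (1.46 to 2.93). Mononuclear phagocyte-like cells went from 34.8 CPM (31.9 to 37.9) to 80.1 CPM (70.8 to 90.3), a log2 ratio of 1.20 (0.98 to 1.42). Fibroblast-like cells, at 25.6 CPM in sham and 53.7 CPM in IR, and endothelial-like cells were also over 2-fold higher in IR, with log2 ratios of 1.07 (0.60 to 1.51) and 1.35 (0.60 to 2.09). Without the upper limit the fibroblast-like ratio was 0.85 (0.69 to 1.01), under 2-fold. The mural-like level did not differ between the libraries beyond its interval, with a log2 ratio of 0.12 (−0.45 to 0.65). B-cell-like and T-cell-like cells stayed between 4.36 and 7.63 CPM. The thinned share of neutrophil-like cells with a Bcl2l1 UMI was 1.33% in sham, from 3 cells, and 13.7% in IR, against 6.70% and 39.5% before thinning.

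Bcl2, on chromosome 1 (106538178 to 106714274), is the founding anti-apoptotic member and was highest in NK-cell-like and T-cell-like cells among the 8 classes of both libraries. NK-cell-like cells had 499 CPM (447 to 555) in sham and 634 CPM (539 to 740) in IR. T-cell-like cells had 403 CPM (367 to 441) in sham and 346 CPM (315 to 380) in IR, a log2 ratio of −0.22 (−0.41 to −0.028), and B-cell-like cells 110 and 107 CPM. Neutrophil-like cells were at the other end, with 4 UMIs in sham (8.21 CPM) and 13 UMIs of 9576561 in IR (1.36 CPM, 0.72 to 2.32). In mononuclear phagocyte-like cells Bcl2 went from 21.1 CPM (18.8 to 23.5) to 43.8 CPM (37.0 to 51.5), a log2 ratio of 1.06 (0.76 to 1.34). That difference did not hold without the upper limit on detected genes. Then the levels were 24.9 and 26.4 CPM in 3448 sham and 1290 IR cells, and the log2 ratio 0.085 (−0.12 to 0.29).

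Bax, on chromosome 7 (45461697 to 45466898), encodes a pore-forming effector. Its level was between 132 and 276 CPM in all sham classes other than neutrophils, and between 103 and 254 CPM in these classes in IR. Mononuclear phagocyte-like cells were highest, with 276 CPM (267 to 284) in sham and 254 CPM (238 to 272) in IR. Neutrophil-like cells had 18.5 CPM (8.45 to 35.1), from 9 UMIs, and 31.3 CPM (27.9 to 35.1). The log2 ratio of neutrophil-like over mononuclear phagocyte-like cells was −3.90 (−5.03 to −2.97) in sham and −3.02 (−3.22 to −2.83) in IR. After thinning, 23.2% of sham and 21.6% of IR mononuclear phagocyte-like cells held a Bax UMI, and 2.21% and 3.34% of neutrophil-like cells, against 63.6%, 63.1%, 3.77% and 11.3% before thinning.

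Between the libraries the Bax ratio was under 2-fold in each of the 8 classes. In neutrophil-like cells it was 0.76 (−0.18 to 1.90), from 9 sham UMIs, an interval that reaches past 2-fold. That ratio was 1.02 with at most 10% mitochondrial UMIs and −0.51 with mixed barcodes kept. Bax was lower in IR in B-cell-like cells, with a log2 ratio of −0.34 (−0.54 to −0.14), and in T-cell-like cells, with −0.49 (−0.82 to −0.15). It was higher in mural-like cells, with 0.45 (0.039 to 0.84). In fibroblast-like cells the ratio was 0.0073 (−0.25 to 0.25), and 0.34 without the upper limit. In mononuclear phagocyte-like cells the ratio was −0.12 (−0.22 to −0.0089), and 0.043 (−0.018 to 0.10) without the upper limit.

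**Figure D2:**
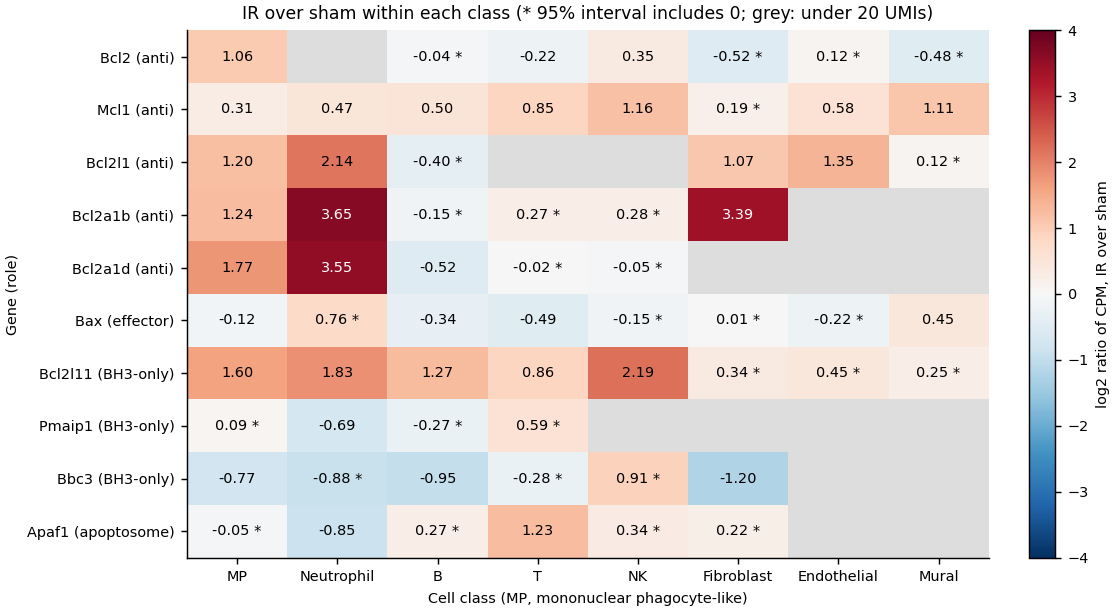
The log2 ratio of IR over sham CPM for each gene (rows, with its role) in 8 cell classes (columns), where red is higher in IR, blue is higher in sham, grey marks fewer than 20 UMIs over both libraries and a star an interval that includes 0. The Bcl2a1b and Bcl2a1d ratios of 3.65 and 3.55 in neutrophils are the largest in the myeloid columns, Bcl2l11 is higher in IR in all 5 leukocyte classes, and Bbc3 is lower in 3 classes with an interval below 0.

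Bcl2l11, on chromosome 2 (128126038 to 128162547), encodes BIM, a BH3-only protein that binds all the anti-apoptotic members. NK-cell-like cells had the highest level in IR, at 436 CPM (358 to 525) against 95.3 CPM (73.4 to 122) in sham, a log2 ratio of 2.19 (1.74 to 2.66). Neutrophil-like cells went from 80.1 CPM (57.0 to 110) to 284 CPM (274 to 295), a ratio of 1.83 (1.37 to 2.32). Mononuclear phagocyte-like cells went from 30.1 CPM (27.4 to 33.0) to 91.2 CPM (81.2 to 102), a ratio of 1.60 (1.39 to 1.81), and 0.94 under a stricter marker rule. B-cell-like cells, with a ratio of 1.27 (0.94 to 1.61), and T-cell-like cells, with 0.86 (0.41 to 1.32), were higher in IR as well. In the fibroblast-like, endothelial-like and mural-like classes all levels were between 11.5 and 30.7 CPM and the intervals of the ratios included 0. Endothelial-like cells without the upper limit had a ratio of 1.17 (0.37 to 1.99), from 24 and 33 UMIs. The thinned share of NK-cell-like cells with a Bcl2l11 UMI was 7.37% of 217 cells in sham and 37.3% of 67 cells in IR, against 24.7% and 63.2% before thinning, and about 1.0% in fibroblast-like cells of both libraries.

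Pmaip1, which encodes the MCL1-binding and A1-binding BH3-only protein NOXA, had its highest levels in the mononuclear phagocyte-like and neutrophil-like classes. Mononuclear phagocyte-like cells had 67.5 CPM (63.4 to 71.8) in sham and 72.0 CPM (63.2 to 81.7) in IR, and neutrophil-like cells 73.9 CPM (51.8 to 102) and 45.7 CPM (41.6 to 50.2). The neutrophil log2 ratio was −0.69 (−1.18 to −0.16). Levels in B-cell-like, T-cell-like and NK-cell-like cells were at most 28.2 CPM in both libraries, and the 3 stromal classes had at most 3.82 CPM. Without the upper limit the mononuclear phagocyte ratio turned from 0.093 (−0.12 to 0.30) to −0.30 (−0.43 to −0.17). The subsets had unequal shares in the libraries, as monocyte-type cells, whose own levels follow with the subsets, were 242 of 3147 sham and 155 of 537 IR mononuclear phagocyte-like cells.

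Bbc3, on chromosome 7 (16308393 to 16318205), encodes PUMA, a BH3-only protein and p53 target. In mononuclear phagocyte-like cells it was at 52.0 CPM (48.5 to 55.8) in sham and 30.6 CPM (25.0 to 37.2) in IR, a log2 ratio of −0.77 (−1.08 to −0.47). Without the upper limit the levels were 52.8 and 19.9 CPM and the ratio −1.41 (−1.61 to −1.21), past 2-fold. Fibroblast-like cells went from 15.4 CPM to 6.71 CPM, from 216 and 6 UMIs, a ratio of −1.20 (−2.66 to −0.049), and −1.28 (−1.56 to −0.998) without the limit. B-cell-like cells had a ratio of −0.95 (−1.76 to −0.18). NK-cell-like cells were at 35.7 CPM in sham and 67.3 CPM in IR, from 24 and 17 UMIs, with a ratio of 0.91 (−0.074 to 1.87), and 1.02 (0.068 to 1.93) without the limit. Neutrophil-like cells had 3 UMIs in sham and 32 in IR (3.34 CPM, 2.29 to 4.72), a ratio of −0.88 (−2.56 to 1.47). They had 7 UMIs in sham without the upper limit, 13.8 CPM, and a ratio of −2.05 (−3.24 to −0.63). That setting raised the sham neutrophil-like cells only from 239 to 241, so the added UMIs came from very few barcodes. These had over 2500 detected genes and may be doublets, which was not tested.

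Apaf1, on chromosome 10 (90989311 to 91082770), encodes the scaffold of the apoptosome. Mononuclear phagocyte-like cells had 28.8 CPM (26.2 to 31.7) in sham and 27.9 CPM (22.5 to 34.2) in IR, a log2 ratio of −0.047 (−0.39 to 0.28). Neutrophil-like cells had 34.9 CPM (20.3 to 55.9), from 17 UMIs, and 19.3 CPM (16.6 to 22.3), a ratio of −0.85 (−1.57 to −0.043). T-cell-like cells had 7.63 CPM, from 9 UMIs, and 17.9 CPM, from 23 UMIs, with a ratio of 1.23 (0.068 to 2.53). All class levels lay between 7.51 and 39.6 CPM, and in sham the neutrophil-like, NK-cell-like and mononuclear phagocyte-like levels did not differ from each other beyond their intervals. The thinned share of mononuclear phagocyte-like cells with an Apaf1 UMI was 2.86% in sham and 3.06% in IR, and 12.1% and 15.3% before thinning.

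Mononuclear phagocyte-like cells were divided by marker lists into resident-type cells, which follow the MerTK+CCR2- pattern (2886 sham and 378 IR cells), and monocyte-type cells, which follow MerTK-CCR2+ (242 and 155). The lists gave nearly equal scores, within 1 marker, in 2.99% of sham and 3.35% of IR cells. Cells with equal scores, 19 in sham and 4 in IR, were in neither subset. In resident-type cells 3 of the 10 genes were at least 2-fold higher in IR, against 10.5% of genes, namely Bcl2, Bcl2l1 and Bcl2a1d, and none was at least 2-fold lower, against 7.42%. Without the upper limit Bcl2l1 alone remained past 2-fold among these, at 1.27, while Bcl2a1d had a ratio of 0.67 (0.57 to 0.77). In monocyte-type cells 4 were at least 2-fold higher, against 10.9%, namely Bcl2l1, Bcl2a1b, Bcl2a1d and Bcl2l11, and Bbc3 was at least 2-fold lower, against 16.8%. The median over all genes was 0.13 in resident-type and −0.15 in monocyte-type cells.

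Between the subsets, resident-type cells were at least 2-fold above monocyte-type cells in sham for Bcl2l1 and Bcl2a1b, against 17.4% of genes, and below them for Pmaip1, against 11.3%. In IR they were above them for Bcl2l1, against 22.2%, and below them for Bcl2a1d, Bcl2l11 and Pmaip1, against 8.5%. Bcl2a1b was at 481 CPM (469 to 493) in sham and 959 CPM (920 to 1000) in IR in resident-type cells, and at 195 CPM (172 to 219) and 1327 CPM (1257 to 1399) in monocyte-type cells. The log2 ratio of resident-type over monocyte-type cells was therefore 1.31 (1.13 to 1.49) in sham and −0.47 (−0.57 to −0.37) in IR. The monocyte-type ratio of IR over sham for Bcl2a1b was 2.77 with the lists. It was 1.85 with cells divided by their own Mertk and Ccr2 UMIs. Bcl2a1d was at 118 and 134 CPM in sham resident-type and monocyte-type cells and at 258 and 736 CPM in IR, with log2 ratios of resident-type over monocyte-type cells of −0.19 (−0.41 to 0.035) and −1.51 (−1.67 to −1.36). Bcl2l1 was higher in resident-type cells in both libraries, at 37.2 against 12.2 CPM in sham and 97.9 against 39.3 CPM in IR, with log2 ratios of 1.61 (0.92 to 2.40) and 1.32 (0.83 to 1.84). Mcl1 was at 1128 and 1105 CPM in the sham subsets and at 1242 and 1709 CPM in the IR subsets, a log2 ratio of 0.030 (−0.046 to 0.11) in sham and −0.46 (−0.55 to −0.37) in IR. Bcl2 had a log2 ratio of IR over sham of 1.29 (0.96 to 1.61) in resident-type cells and 0.15 (−0.55 to 0.83) in monocyte-type cells, and 0.54 (0.31 to 0.77) and −1.49 (−1.96 to −1.02) without the upper limit. Divided by their own Mertk and Ccr2 UMIs, monocyte-type cells had a Bcl2 ratio of 0.95.

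Among BH3-only genes, Bcl2l11 was at 29.7 CPM in sham and 41.5 CPM in IR resident-type cells, a log2 ratio of 0.48 (0.15 to 0.81). In monocyte-type cells it was at 35.2 CPM (26.0 to 46.5) and 198 CPM (172 to 228), a ratio of 2.50 (2.04 to 2.98), with 155 IR cells behind it. Resident-type over monocyte-type cells gave a log2 ratio of −0.24 (−0.67 to 0.21) in sham and −2.26 (−2.62 to −1.90) in IR. Pmaip1 was lower in resident-type than in monocyte-type cells of both libraries, at 51.9 against 217 CPM in sham and 32.8 against 162 CPM in IR, with ratios of −2.06 (−2.26 to −1.86) and −2.31 (−2.72 to −1.90). In IR the intervals of the Pmaip1 and Bcl2l11 ratios overlapped. Pmaip1 was lower in IR in resident-type cells, with a log2 ratio of −0.66 (−1.03 to −0.32), and in monocyte-type cells, with −0.42 (−0.70 to −0.14). When cells were divided by their own Mertk and Ccr2 UMIs in place of the lists, the monocyte-type ratio turned to 0.10 (−0.19 to 0.39). The resident-type ratio was then −1.355. With the marker lists Pmaip1 was lower in IR in each subset, while the pooled class had a ratio of 0.093 (−0.12 to 0.30), and Bcl2l11 had 1.60 in the pooled class. The part of the larger share of monocyte-type cells in IR in these pooled ratios was not tested.

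Bbc3 was lower in IR in both subsets, at 49.98 and 33.2 CPM in resident-type cells and 73.2 and 25.5 CPM in monocyte-type cells, with log2 ratios of −0.59 (−0.95 to −0.25) and −1.52 (−2.20 to −0.89). Without the upper limit the ratios were −1.16 and −2.25. The monocyte-type ratio was −1.01 when cells were divided by their own Mertk and Ccr2 UMIs. Apaf1 was at 26.9 CPM (24.3 to 29.8) in resident-type and 48.1 CPM (37.3 to 61.1) in monocyte-type cells of sham, a log2 ratio of −0.84 (−1.22 to −0.44). In IR it was at 25.3 and 34.4 CPM, from 58 and 35 UMIs, a ratio of −0.44 (−1.07 to 0.21). Bax was somewhat higher in resident-type cells, with ratios of 0.34 (0.17 to 0.51) in sham and 0.32 (0.10 to 0.55) in IR.

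**Figure D3:**
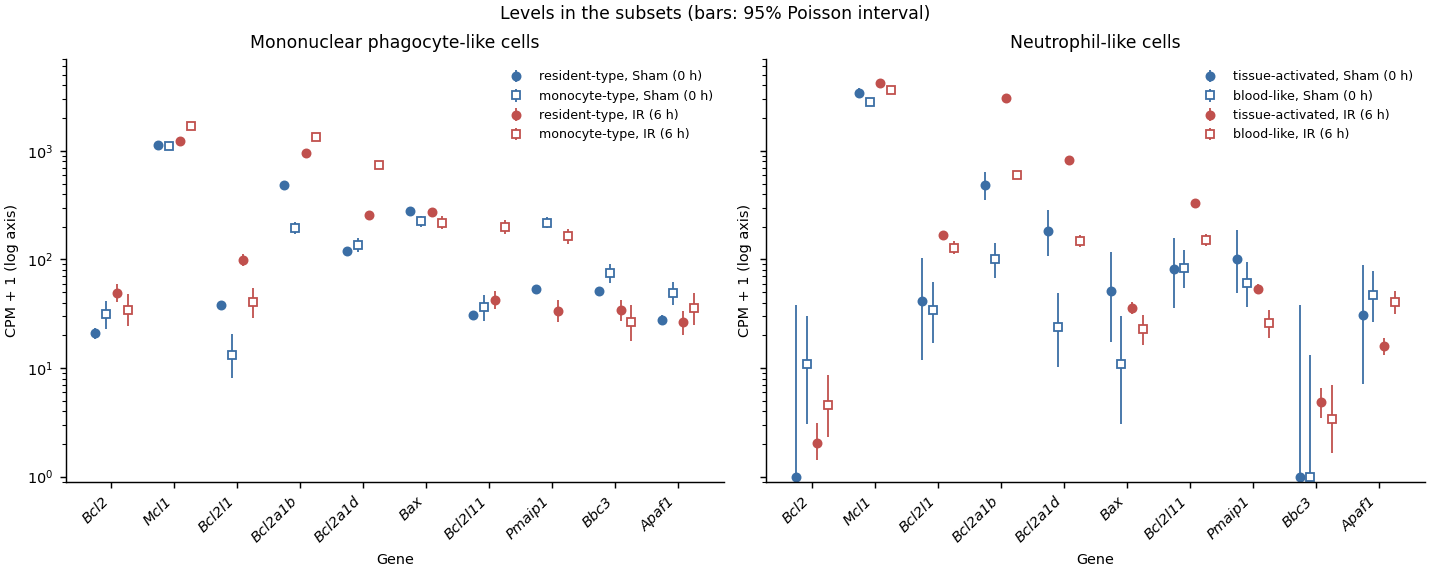
Levels (CPM plus 1, log axis, bars 95% Poisson intervals) of the 10 genes in resident-type and monocyte-type mononuclear phagocyte-like cells (left) and in tissue-activated and blood-like neutrophil-like cells (right), with sham in blue and IR in red. In IR, Bcl2l11 stood at 41.5 CPM in resident-type and 198 CPM in monocyte-type cells, and Bcl2a1b at 3085 CPM in tissue-activated and 595 CPM in blood-like neutrophils.

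Neutrophil-like cells were divided in the same way into tissue-activated (58 sham and 1623 IR cells) and blood-like cells (137 and 419). The tissue-activated list was Cxcl3, Cxcl2, Ccl3, Ccl4, Tnf, Ccrl2, Spp1, Icam1 and Il1a, mostly genes of inflammatory activation. The A1 genes are typical of such activation too, so their difference between these subsets is not independent of the split. Cells with equal scores, 44 in sham and 278 in IR, were in neither subset. In this split 54.4% of sham and 34.5% of IR cells scored within 1 marker, so the border was soft. In IR, 4 of the 9 genes with enough UMIs were at least 2-fold higher in tissue-activated than in blood-like cells, against 9.14% of 7276 genes, namely Bcl2a1b, Bcl2a1d, Bcl2l11 and Pmaip1, and Apaf1 was at least 2-fold lower, against 12.3%. In sham 5 genes had enough UMIs, with Bcl2a1b and Bcl2a1d higher, against 11.1% of 1956 genes, and none lower, against 5.62%. Bcl2a1b was in IR at 3085 CPM (3044 to 3127) in tissue-activated and 595 CPM (559 to 633) in blood-like cells, a log2 ratio of 2.37 (2.28 to 2.47). Bcl2a1d was at 830 and 147 CPM, a ratio of 2.49 (2.31 to 2.68). Apaf1 was at 14.8 CPM (12.1 to 18.0) in tissue-activated and 39.5 CPM (30.6 to 50.2) in blood-like cells, a ratio of −1.41 (−1.87 to −0.95).

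Mcl1 differed little between these subsets in IR, at 4226 and 3635 CPM, a log2 ratio of 0.22 (0.18 to 0.26). Bcl2l11 was at 328 and 150 CPM and Pmaip1 at 52.9 and 24.8 CPM, with ratios of 1.13 (0.94 to 1.32) and 1.09 (0.63 to 1.59). The IR over sham ratios of Bcl2a1b were 2.68 (2.28 to 3.12) in tissue-activated and 2.59 (2.07 to 3.16) in blood-like cells, so Bcl2a1b was higher in IR within each subset. Between the libraries 4 of 9 tested genes were at least 2-fold higher in IR in tissue-activated cells, against 7.13%, namely Bcl2l1, Bcl2a1b, Bcl2a1d and Bcl2l11, and Apaf1 was lower, against 31.8%. In blood-like cells 4 of 8 were higher, against 13.6%, namely Bcl2l1, Bcl2a1b, Bcl2a1d and Bax, and Pmaip1 was lower, against 7.35%. The intervals of Bax in blood-like and Apaf1 in tissue-activated cells included 0. The sham subsets held 99963 and 303162 UMIs in all, and Bcl2 and Bbc3 were listed with 0 UMIs in sham tissue-activated cells, which allows up to 3 UMIs, or 30.0 CPM. Bbc3 had 0 UMIs in sham blood-like cells too.

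The 5 anti-apoptotic genes were summed and divided by the 3 BH3-only genes, as UMIs per UMI. This ratio of summed levels went from 11.7 (11.2 to 12.2) in sham to 15.5 (14.3 to 16.8) in IR mononuclear phagocyte-like cells. It went from 13.6 (12.9 to 14.2) to 24.3 (21.4 to 27.7) in resident-type cells and from 4.54 (4.10 to 5.04) to 9.96 (8.98 to 11.1) in monocyte-type cells. Resident-type cells were therefore above monocyte-type cells in both libraries. All these ratios were computed only with the upper limit on detected genes. That limit removed 57.3% of IR but 7.17% of sham resident-type cells, and 60.4% of IR but 22.9% of sham monocyte-type cells. In neutrophil-like cells the ratio was 20.3 (16.1 to 25.8) and 22.0 (21.2 to 22.8), with intervals that overlap, although Mcl1 made up 85.3% of the UMIs of the 10 genes in sham and 53.0% in IR. NK-cell-like cells went the other way, from 6.31 (5.09 to 7.89) to 2.64 (2.15 to 3.26). The intervals of B-cell-like cells, at 9.46 and 7.63, and of T-cell-like cells, at 8.02 and 7.37, overlapped. No interval for the change itself was computed, so an overlap here does not show that a ratio was the same in both libraries.

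**Figure D4:**
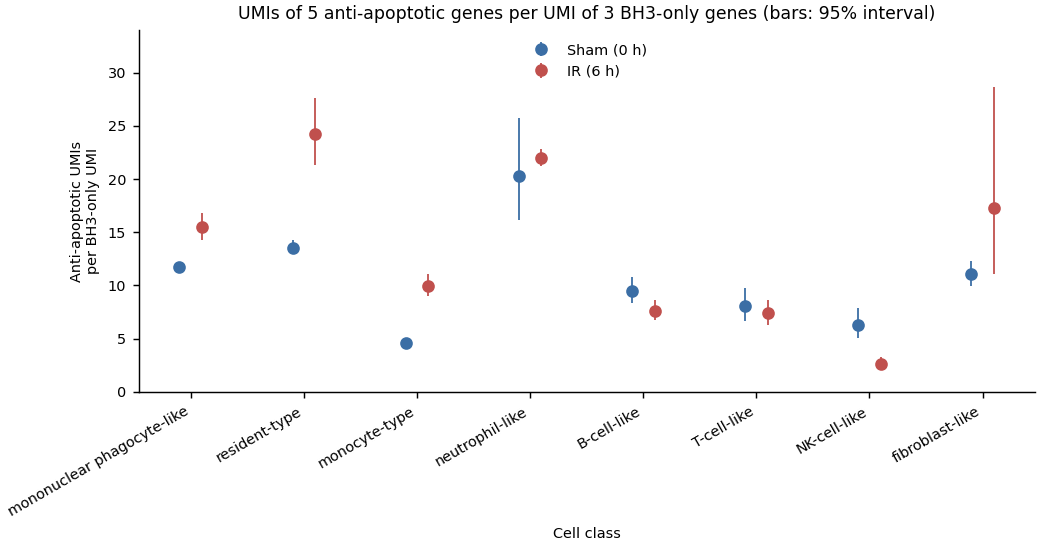
UMIs of Bcl2, Mcl1, Bcl2l1, Bcl2a1b and Bcl2a1d per UMI of Bcl2l11, Pmaip1 and Bbc3 in each class (vertical axis, from 0), with sham in blue, IR in red and 95% intervals as bars. The ratio is higher in IR in both mononuclear phagocyte subsets (24.3 and 9.96 against 13.6 and 4.54) and lower in IR in NK-cell-like cells (2.64 against 6.31). It was computed only with the upper limit on detected genes.

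Other genes of the pathway were followed by fixed lists. Of 16 further BCL2 family genes, 10 had enough UMIs in mononuclear phagocyte-like cells. Bcl2a1a alone was at least 2-fold higher in IR, at 215 against 57.4 CPM, a log2 ratio of 1.90 (1.76 to 2.05), against 9.61% of all genes, and none was at least 2-fold lower, against 9.35%. None of the 8 apoptosome partners and caspases and none of the 7 caspase inhibitors and antagonists passed 2-fold there. Of 7 tested genes of the extrinsic route, Fas, a death receptor, was at 33.3 against 10.6 CPM. Of 7 upstream regulators, Nfkb1, an NF-kB subunit, was at 257 against 101 CPM.

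In neutrophil-like cells 8 of the 16 further family genes had enough UMIs, with 2 at least 2-fold higher in IR, against 11.8% of all genes, and 4 at least 2-fold lower, against 18.4%. Bcl2a1a had a log2 ratio of 3.87 (3.22 to 4.60) and Bnip3, a mitochondrial BH3-containing gene, −1.09 (−1.62 to −0.52). The rest of these were picked out after their values were seen. Bid, which links death receptors to mitochondria, had a ratio of −2.14 (−2.68 to −1.56) and Bak1, the other effector, −1.52 (−2.37 to −0.56), while the intervals of Bmf and Bcl2l13 included 0. Of 6 tested genes of the extrinsic route 3 were higher, namely Cflar, which encodes the caspase-8 inhibitor FLIP (log2 ratio 1.78), Fas (1.33) and Casp8 (1.28). Cdkn1a, a p53 target, had a ratio of 1.88 and Nfkb1 1.85, the 2 of 7 upstream regulators past 2-fold. Diablo, which encodes an antagonist of caspase inhibitors, had 2 UMIs in sham and 205 in IR, a ratio of 2.38 (0.51 to 5.44). None of the 4 tested apoptosome partners and caspases passed 2-fold.

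Likeness was measured as Pearson's r of log2(CPM + 10) over 16 units, the 8 classes in both libraries, among 14064 genes. These units share libraries and depth, and r is given as a description. Bcl2a1b and Bcl2a1d were each most like the other, with r = 0.957, followed for both by Il10ra, an interleukin-10 receptor subunit, with 0.924 and 0.905. Mcl1 was most like Cmtm6 (0.956), Csrnp1 (0.953) and Cd33 (0.947), and Bcl2l1 most like Hbegf (0.941), a growth factor gene. For Pmaip1 the leading genes were Evi2a (0.967), Spi1 (0.936), which encodes the myeloid factor PU.1, and Ptpn6 (0.935). Bcl2l11 was most like Spata13 (0.924), Tes (0.910) and Sema4d (0.887), and Bcl2 most like Slc25a40 (0.952). The best r was lower for Bbc3, at 0.878 with Galk2, and for Apaf1, at 0.863 with Cd244, both genes of low levels. With log2(CPM + 1) in its place, 5 of the 10 genes shared fewer than 2 of their 3 most alike genes with these. Bcl2a1b and Bcl2a1d were then not among each other's 3 most alike genes, and neither was Il10ra. Actr3 (0.933) led for Bcl2a1b and Glipr1 (0.925) for Bcl2a1d.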

How the data were processed

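The authors aligned reads of 10x 3′ libraries to mm10 with Cell Ranger (3.1.0 in the matrix headers) and deposited raw UMI counts, as 1 matrix of genes by barcodes per group. Depth per library is given above. The filter on cells (200 to 2500 genes, at most 30% mitochondrial UMIs) is the study's, although the study states more cells than it leaves here. Doublets were removed only by the upper limit and by leaving out barcodes whose next class reached over 0.5 of the share of the first.

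Cells were placed in 11 classes by 153 marker genes, of which 2 were missing from the matrices, with at least 3 markers. The markers were listed before the thresholds of this rule, which were set after the matrices had been seen. Dendritic, Schwann and cardiomyocyte classes had under 50 cells. The members and lists were chosen with earlier results of these data known.

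UMIs were summed per class, divided by the class total (CPM) and given exact 95% Poisson intervals. Ratios have exact conditional intervals, and shares exact Clopper-Pearson intervals. A gene was tested against 2-fold with at least 20 UMIs over both groups compared, with a count of 0 set at 3 UMIs and called only where that bound passed. The genes named were all members, list genes at least 2-fold apart with an interval without 0 in mononuclear phagocytes or neutrophils (at most the 8 with most UMIs), and the 3 most alike genes per member. Python 3.11.15, numpy 2.4.6, scipy 1.17.1, pandas 2.3.3 and Biopython 1.88 were used, and the script was tested on simulated counts. With some genes set 3-fold apart, 79.7% of these passed 2-fold in the neutrophil-like comparison and 96.5% in the mononuclear phagocyte-like one. Of unchanged genes, 9.99% and 2.37% passed 2-fold by counting error alone. Coordinates and transcripts are from GENCODE vM21 and promoters from RefSeq. A position or sequence of Pmaip1 is not reported here.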

Additional observations from a re-analysis of the deposited data

Results flagged for a closer look

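Mcl1 was counted in cardiomyocyte-like cells, a class too small for the comparisons, at 211 CPM (145 to 296) in 45 IR cells, from 33 UMIs, and at 83.0 CPM (30.5 to 181) in 32 sham cells, from 6 UMIs. The log2 ratio was 1.34 (0.071 to 2.89), and this signal above the sham level in cells outside the main classes is what singled it out. Of the other 9 genes each had at most 4 UMIs there in either library.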

How the results depend on the processing

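No paired analysis was possible because the matrices pool the numbered samples, and for the same reason no replicate could be left out. Ratios of IR over sham moved beyond the main interval for 17 of 115 results, with 1 more turned, without the upper limit on detected genes, for 14 of 115 with mixed barcodes kept, for 11 of 92 under a stricter marker rule and for 10 of 115 with scaling by the median of ratios. Mixed barcodes kept and free neutrophil RNA taken off were chosen after seeing the data. These changed sign beyond a called direction: Bax in mononuclear phagocytes, 0.043 without the upper limit; Pmaip1 in monocyte-type cells, 0.10, and Bcl2 in resident-type over monocyte-type sham cells, 0.29, when divided by their own Mertk and Ccr2 UMIs. With median scaling the ratio of neutrophil-like over mononuclear phagocyte-like IR cells was 0.66 for Pmaip1 and 0.78 for Apaf1. Members at least 2-fold lower numbered 1 in mononuclear phagocytes without the upper limit and 1 with mixed barcodes kept, against 0. In neutrophils they numbered 1 with no filter on low counts, 2 without the upper limit, 1 at 10% mitochondrial UMIs and 3 with mixed barcodes kept, against 0. Shares over all tested genes were not computed for these settings, so these counts are not read as a result about the members. Genes at least 2-fold higher in mononuclear phagocytes numbered 1983 with no filter on low counts, against 1059. In neutrophils, genes lower numbered 2588 with no filter, 930 with median scaling and 2590 with mixed barcodes, against 1406. The cause of these moves was not tested. The stricter marker rule left under 50 endothelial-like and monocyte-type cells, and 10% mitochondrial UMIs under 50 endothelial-like and mural-like cells, so these were not run. Shares of cells moved beyond their intervals for 31 of 40 when thinned to 500 UMIs and for 34 of 40 without thinning. With median scaling 20 of 58 ratios between classes or subsets moved and 2 turned. Under the Mertk and Ccr2 split 8 of 20 such ratios moved and 1 turned, and 16 of 40 levels moved. Of the 20 ratios of IR over sham under that split, 5 moved and 1 turned. With log2(CPM + 1) 5 of the 10 lists of most alike genes kept fewer than 2 of 3. Depth limited Bcl2 and Bbc3 in neutrophils, with 4 and 3 sham UMIs, and Bcl2a1d in the stromal classes, with 0 to 10 UMIs.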
